A study of Mus musculus with 22 samples.

Results

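VHL-deficient and wild type (WT) tumor CD8+ T cells were compared within the cell fraction labelled Trm, for tissue-resident memory. The comparison rests on 4 RNA sequencing libraries of the 22 in the series, 2 of each genotype, chosen by their labels. All 4 hold P14 cells, CD8+ T cells with a transgenic receptor for a peptide of lymphocytic choriomeningitis virus, recovered from tumors on day 7. They share the C57BL/6 strain, the age range of 6 to 12 weeks and pools of 5 mice for each biological replicate, so that each library averages over mice. The same day and tissue were also sequenced as nonTrm cells and as unsplit tumor cells, again with 2 libraries of each genotype, and these serve below as points of reference. The part of the label written V was read as VHL-deficient. Neither the driver of the deletion, nor the kind of tumor, nor the gate by which Trm cells were sorted is stated in the labels used here. Because RNA came from bulk cells, fewer cells of a kind and less RNA per cell cannot be told apart in any value below.

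VHL is the substrate-binding subunit of a ubiquitin ligase. When oxygen is present, prolyl hydroxylases (the Egln genes) modify the alpha subunits of hypoxia-inducible factor (HIF), and VHL then marks them for degradation; without VHL the subunits persist, pair with Arnt and activate genes for glucose uptake, glycolysis, mitophagy and angiogenesis. Tissue-resident memory T cells stay in a tissue without returning to blood, and many carry the integrin CD103, encoded by Itgae, which binds E-cadherin on epithelium and is induced by TGF-beta.

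The 4 Trm libraries held 7093672 to 10211060 reads assigned to genes, of which 27.0% to 30.7% fell on the single ribosomal RNA gene counted here. Levels are size-factor scaled counts, in which 1 read is worth 0.731 to 1.35 in these libraries, and log2FC is the difference of mean log2(scaled count + 1), VHL-deficient minus WT. Adjusted p is from limma with Benjamini-Hochberg adjustment over 14327 genes, and a gene is called, or said to rise or fall, where it is under 0.05. The titles of all Trm and nonTrm libraries were read as column 1 of a plate, with VHL-deficient libraries in rows A to D and WT in rows E to H. The labels do not say what these title endings mean. On this reading genotype was compared within a column, and genotype and row cannot be told apart. One nonTrm library, VHL-deficient replicate 2, lay far from the rest, with 45.7% of reads on that ribosomal RNA gene. P-values rest on the spread between libraries of the same group, pooled over all 10 groups of the 22 libraries. They do not rest on the 4 Trm libraries alone. Each biological replicate was a pool of mice. The labels do not say whether Trm and nonTrm libraries of the same genotype and number came from the same pool. Comparisons between fractions were not paired in the main fit. Whether the pools were sorted and prepared apart is also not stated.

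Vhl (mm10 chromosome 6, 113623959 to 113631633, plus strand) was read first, as the check of the genotype labels. Its levels were 0 and 10.1 in the VHL-deficient libraries and 111 and 175 in the WT libraries, or 13 reads in all against 322 (log2FC -5.40, SE 0.80, adjusted p = 2.52e-04). Every VHL-deficient value lay below every WT value. Itgae (mm10 chromosome 11, 73090583 to 73147446, plus strand), the marker given for the Trm fraction, was at 373 and 1763 in the VHL-deficient libraries and 14.9 and 37.3 in the WT libraries (log2FC 5.04, SE 0.68, adjusted p = 1.02e-04). Its values did not overlap between genotypes, and replicate 2 was the higher library in each. In nonTrm cells Itgae was at 17.8 and 16.4 without VHL and had no read in either WT library. Itgae was thus called higher in Trm than in nonTrm cells of both genotypes, although the WT Trm levels lay below the 102 and 183 of WT spleen cells. The labels do not say whether the sort used the protein of Itgae, and the part of the gate in its difference between genotypes was not tested.

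Of 29 residency genes tested, only Itgae passed the test between the WT Trm and the WT nonTrm libraries, a comparison that called 43 of 14327 genes (0.3%). Xcl1, Cd101 and Itga1 did not overlap between these libraries and missed the threshold (adjusted p = 0.113, 0.234 and 0.380). Of these, Xcl1 was higher in WT Trm than in WT nonTrm cells. Cd101 (59.5 and 90.6 against 129 and 162) and Itga1 (66.2 and 127 against 280 and 131) were lower. Cd69, an early activation antigen that holds cells in tissue, was at 2523 and 3097 in WT Trm and 2735 and 10359 in WT nonTrm cells. Between VHL-deficient Trm and nonTrm cells the only gene called was Itgae (0.00698% of genes tested), with 1257 genes (8.77%) at an unadjusted p under 0.05 and none called by voom on recovered reads. Trm is used here as the label of the sorted fraction. The WT fractions also differed in cycling and interferon genes: 5 of 34 proliferation genes were called higher in WT Trm than in WT nonTrm cells (against 0.202% of all genes tested), and 3 of 25 type I interferon response genes lower (against 0.0977%). The number of calls between the WT fractions was 1 without replicate 2 of the WT Trm cells, 0 without replicate 2 and 141 without replicate 1 of the WT nonTrm cells.

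**Figure D1:**
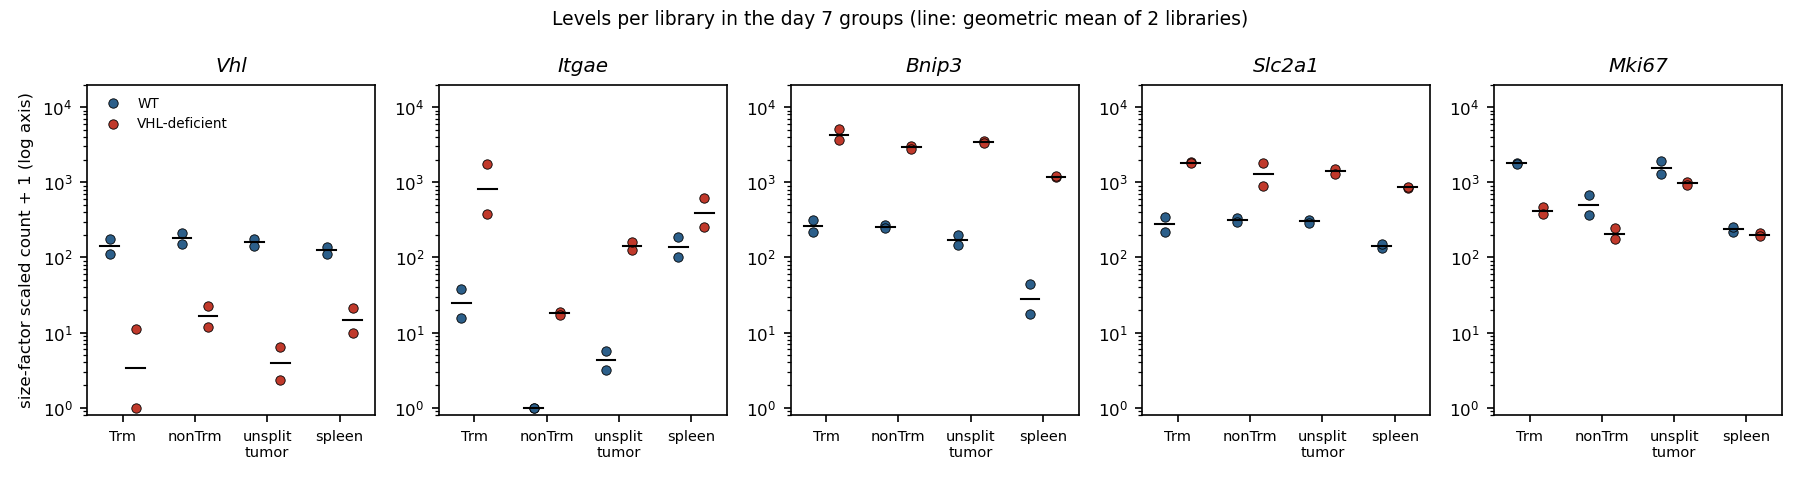
Size-factor scaled counts plus 1 of 5 genes in each library of the day 7 groups (log axis), WT in blue and VHL-deficient in red, with the geometric mean of 2 libraries as a line. In Trm cells Vhl and Mki67 lay lower without VHL and Itgae, Bnip3 and Slc2a1 higher, with no overlap between genotypes.

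Loss of VHL in Trm cells went with more RNA of HIF targets and less RNA of cell cycle and mitochondrial genes. Of the HIF target lists 39 of 63 members rose, of the proliferation genes 24 of 34 fell and of the mitochondrial transcripts 6 of 8. The test called 1446 of 14327 genes (10.1%), of which 726 rose (5.07%) and 720 fell (5.03%). All 1446 had groups that did not overlap, against 53.5% of all genes tested. The median log2FC over all genes tested was 0.09, and -0.07 after a further TMM scaling, under which 519 genes rose and 688 fell (43.0% higher, against 50.2%). The counts of called members in the lists below stand beside the 5.07% and 5.03% of all genes tested. The medians of the lists stand beside the medians of all genes tested.

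The counts moved with single libraries. Without replicate 2 of the VHL-deficient Trm cells 165 genes were higher and 69 lower. Without replicate 1 of the WT Trm cells 275 were higher and 136 lower. The nonTrm libraries enter only through the shared estimate of the spread, and 2367 genes were called without replicate 1 and 2358 without replicate 2 of the VHL-deficient nonTrm cells. With only the 8 Trm and nonTrm libraries in the fit, 146 genes were higher and 30 lower, and with only the 4 Trm libraries 357 and 310. Calls held in all 4 fits that each left out 1 Trm library for 151 genes that rose and 49 that fell.

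**Figure D2:**
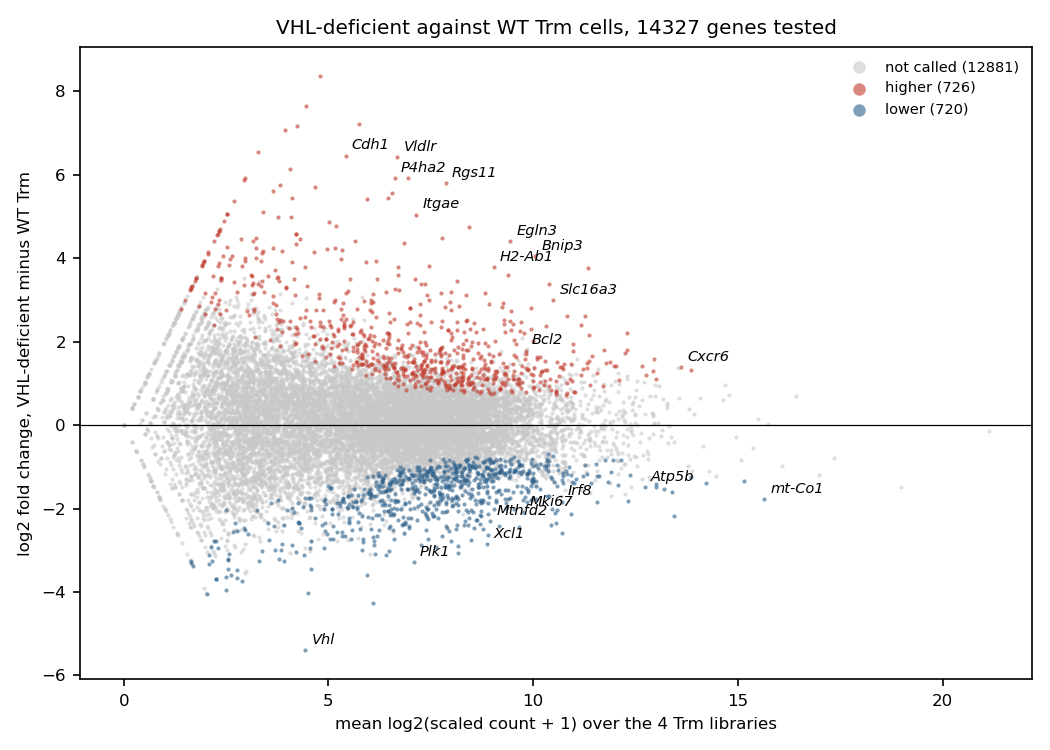
Log2 fold change in Trm cells (VHL-deficient minus WT) against the mean log2(scaled count + 1) over the 4 Trm libraries for 14327 genes, with the 726 called higher in red, the 720 called lower in blue and the rest in grey. HIF targets such as P4ha2, Egln3 and Bnip3 stand out among the increases and Vhl among the decreases.

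The 15 largest increases among called genes above the median level held 6 genes of the HIF target and oxygen-sensing lists (Mgarp, P4ha2, Egln3, Bnip3, Ak4 and the glycogen phosphorylase Pygl) and Itgae. The largest was Vldlr, a receptor for lipoproteins, at 817 and 1102 in the VHL-deficient libraries and 8.11 and 12.4 in the WT libraries (log2FC 6.42, SE 0.79, adjusted p = 3.53e-05). Rgs11, which speeds the inactivation of G proteins, was at 1509.5 and 1995 against 21.6 and 42.4 (log2FC 5.79, SE 0.40, adjusted p = 1.40e-08). Sdc4, a heparan sulfate proteoglycan of the cell surface, was at 602 and 681 against 10.8 and 14.6 (log2FC 5.56, adjusted p = 8.83e-07). In each of these 3 genes the lower VHL-deficient library was more than 10 times the higher WT library. Igf1r, the receptor of insulin-like growth factor, was at 416 and 799 against 12.2 and 12.4 (log2FC 5.44, adjusted p = 3.56e-06). St6gal1, which adds sialic acid to glycoproteins, was at 718 and 1466 against 24.3 and 82.6 (log2FC 4.48, adjusted p = 1.51e-04). Sema6d, a semaphorin, was at 455 and 603 against 13.5 and 43.8 (log2FC 4.36, adjusted p = 3.38e-04). The WT libraries of St6gal1 and Sema6d differed by more, as a ratio, than the VHL-deficient ones. Ppp1r3b, which brings a phosphatase to glycogen, was at 578 and 728 against 45.9 and 45.3 (log2FC 3.80, adjusted p = 0.0294). Plcxd1 was at 329.7 and 442 against 20.3 and 35.1 (log2FC 3.79, adjusted p = 7.62e-06).

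The 15 largest decreases were led by genes of DNA replication and mitosis. Ticrr, needed to fire replication origins, was at 52.3 and 14.8 in the VHL-deficient libraries and 232 and 267 in the WT libraries (log2FC -3.11, SE 0.50, adjusted p = 5.18e-04). Traip, a ubiquitin ligase at the replication fork, was at 59.7 and 8.54 against 249 and 167 (log2FC -3.09, adjusted p = 0.00426). In both genes replicate 2 was the lower VHL-deficient library. Cks1b, a partner of cyclin-dependent kinases, was at 154 and 32.6 against 691 and 432 (log2FC -2.92, adjusted p = 0.00339). Cenpk, of the kinetochore, was at 42.9 and 14.0 against 232 and 151 (log2FC -2.88, adjusted p = 0.00174). Both were again lower in replicate 2 of the VHL-deficient cells. Pclaf, which binds the sliding clamp PCNA, Sapcd2, the nucleosome-binding Hmgn1 and the centriole gene Poc1a fell with log2FC -2.75, -3.02, -2.77 and -2.73. Plk1, Ube2c, Birc5 and Cdc20 are described with the proliferation genes, and Shmt1, Xcl1 and Crtam with their own lists.

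**Figure D3:**
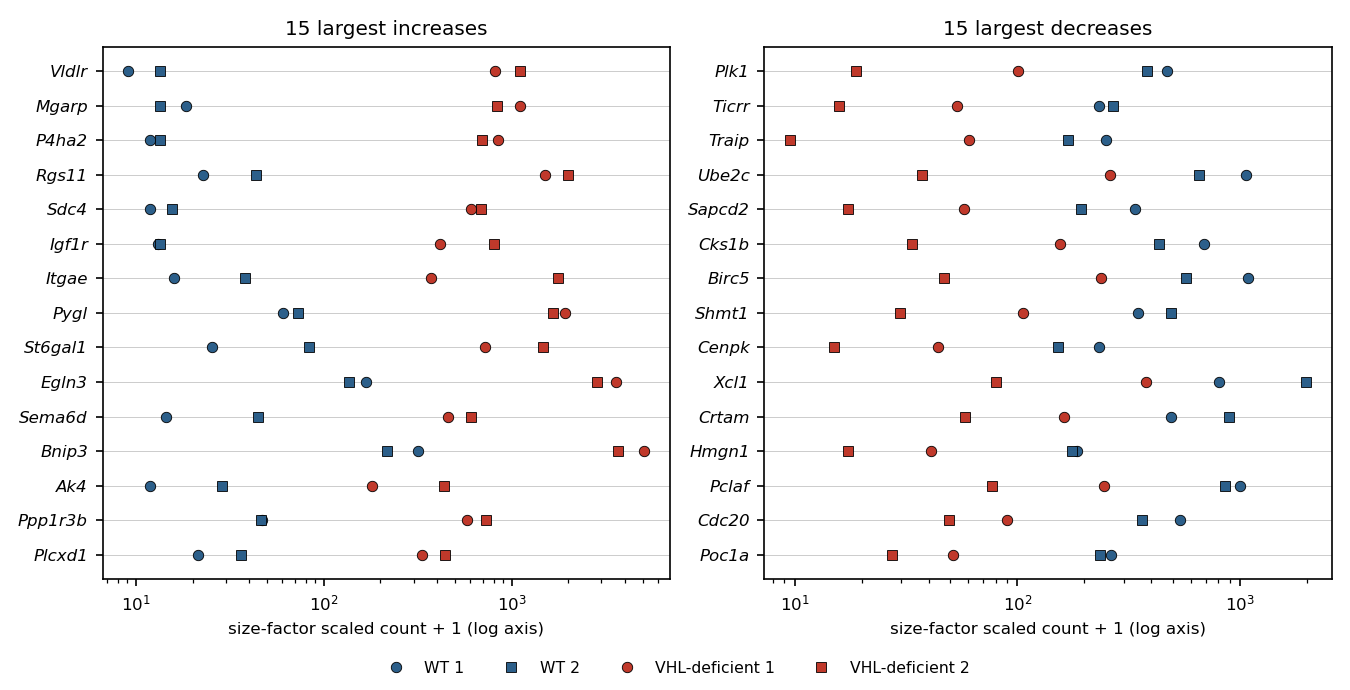
Size-factor scaled count plus 1 (log axis) in each Trm library for the 15 largest increases and the 15 largest decreases among called genes above the median level, with WT in blue, VHL-deficient in red, circles for replicate 1 and squares for replicate 2. The 30 genes were chosen without overlap between genotypes, so their separation is fixed by the choice. Among the decreases replicate 2 is the lower VHL-deficient library in each gene.

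HIF binds DNA at the core letters ACGTG or GCGTG, and the bases before the start site are shown for the 3 called members of the HIF target lists (glycolysis and other targets) with the smallest adjusted p among those with an entry in the promoter table, to show where these letters lie in genes that rose. Each is the 250 bases before the RefSeq start on GRCm38.p6, 5′ to 3′ on the gene's strand, with ACGTG and GCGTG and their reverse complements in capitals; overlapping matches share a run. P4ha2 (chr11:54100674-54100923, plus strand) has 3 matches, Bnip3 (chr7:138909507-138909756, minus strand) 5 and Mgarp (chr3:51396548-51396797, minus strand) 1.
P4ha2: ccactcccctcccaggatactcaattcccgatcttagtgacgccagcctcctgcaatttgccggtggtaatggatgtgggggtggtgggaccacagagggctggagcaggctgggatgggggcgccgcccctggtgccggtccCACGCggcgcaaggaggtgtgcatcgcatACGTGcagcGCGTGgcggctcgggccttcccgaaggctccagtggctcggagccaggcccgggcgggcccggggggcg
Bnip3: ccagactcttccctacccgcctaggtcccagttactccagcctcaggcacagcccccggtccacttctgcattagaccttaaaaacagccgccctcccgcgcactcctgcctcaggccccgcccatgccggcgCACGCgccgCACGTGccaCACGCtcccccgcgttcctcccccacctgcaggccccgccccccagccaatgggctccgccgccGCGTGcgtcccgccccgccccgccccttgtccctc
Mgarp: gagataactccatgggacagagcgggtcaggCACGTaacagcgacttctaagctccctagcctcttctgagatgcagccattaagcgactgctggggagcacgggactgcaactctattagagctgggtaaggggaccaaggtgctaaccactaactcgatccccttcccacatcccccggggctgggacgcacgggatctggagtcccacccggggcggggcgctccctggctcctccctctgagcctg

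Such matches were common. Of all genes in the promoter table, 11226 of 27025 (41.5%) had at least 1 match in this window, and of tested genes with an entry 5694 of 9321 (61.1%). Among genes that rose in Trm cells the share was 330 of 526 (62.7%), and among genes that fell 306 of 497 (61.6%). Both shares lay within 2 percentage points of that of all tested genes. Of the 39 called members of the HIF target lists 32 had an entry, and 28 of these (87.5%) had a match. Those lists were drawn from known HIF targets, so this share describes the lists.

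P4ha2, which hydroxylates prolines in collagen, was at 842 and 691 in the VHL-deficient libraries and 10.8 and 12.4 in the WT libraries (log2FC 5.92, SE 0.33, adjusted p = 9.91e-10). It had the smallest adjusted p of the HIF target lists, and its libraries lay close together within each genotype. Bnip3, a mitophagy receptor, was at 5075 and 3677 against 315 and 215 (log2FC 4.05, SE 0.34, adjusted p = 2.41e-07). Bnip3l, its relative, was at 1496 and 1771 against 296 and 283 (log2FC 2.49, SE 0.20, adjusted p = 2.29e-07). Mgarp, a mitochondrial protein induced by low oxygen, was at 1103 and 833 against 17.6 and 12.4 (log2FC 5.93, SE 0.56, adjusted p = 1.30e-06). In all 4 genes the lower VHL-deficient value was at least 5 times the higher WT value. Ndrg1, a stress-responsive cytoplasmic protein, was at 4425 and 4304 against 365 and 473 (log2FC 3.39, adjusted p = 2.41e-07). Stc2, a secreted glycoprotein hormone, was at 341 and 462 against 6.76 and 10.2 (log2FC 5.41, adjusted p = 3.79e-06). Vegfa, the main angiogenic growth factor, was at 54.4 and 69.1 against 2.70 and 2.19 (log2FC 4.18, SE 0.56, adjusted p = 1.01e-04), low in number but without overlap.

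Of 35 HIF targets outside glycolysis, 21 rose and none fell, with a median log2FC of 1.90. The other members that rose spanned log2FC from 1.43 for Higd1a to 4.20 for Selenbp1. They included the collagen-modifying enzymes P4ha1 and Plod2, the histone demethylases Kdm3a and Kdm4b, the Myc antagonist Mxi1 and the mitochondrial adenylate kinase Ak4. Adm, the vasodilator peptide adrenomedullin, had 53 reads in the VHL-deficient libraries and 2 in the WT ones, a ratio of 24.9 (95% counting interval 6.56 to 211). Car9, a carbonic anhydrase at the cell surface, had 41 reads against 3, a ratio of 12.8 (4.10 to 64.9), and missed the threshold (adjusted p = 0.0557). The 14 members that did not pass had log2FC from -0.62 for Car12 to 2.83 for Car9, and Lag3, Mif, Tfrc, Plod1, Hmox1 and Car12 among them overlapped between genotypes. With VHL-deficient replicate 2 left out, 13 members were called. The calls of Bnip3, Bnip3l, P4ha1, P4ha2, Ndrg1, Vegfa, Ankrd37, Mxi1, Jmjd6, Selenbp1, Stc2, Mgarp and Nrn1 held with any 1 Trm library left out.

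In the oxygen-sensing machinery 3 of 15 genes rose, Egln3, Egln1 and Hif3a, and Vhl alone fell. Egln3 was at 3579 and 2837 in the VHL-deficient libraries and 166 and 135 in the WT libraries (log2FC 4.40, SE 0.29, adjusted p = 1.02e-08). Egln1 was at 358 and 309.8 against 51.3 and 71.6 (log2FC 2.44, SE 0.30, adjusted p = 3.23e-05). Both hydroxylate HIF alpha and are HIF targets themselves, and neither overlapped between genotypes. Egln2, the third hydroxylase, overlapped at 201 and 258 against 285 and 201 (adjusted p = 0.891). Hif3a, which encodes a HIF alpha subunit with inhibitory forms, had 89 reads in the VHL-deficient libraries and none in the WT ones, at least 27.9-fold higher against a floor of 3 reads over the WT group. Hif1a was at 1396 and 1794 against 2685 and 3021 (log2FC -0.85, adjusted p = 0.0642). Epas1, which encodes HIF-2 alpha, was at 120.4 and 212 against 64.9 and 50.4 (log2FC 1.47, adjusted p = 0.0712). The genotypes did not overlap in Hif1a or Epas1, yet neither passed the test. The ligase partners Elob, Eloc, Cul2 and Rbx1 and the HIF partner Arnt were not called. The calls of Egln1, Egln3, Hif3a and Vhl held with any 1 Trm library left out.

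**Figure D4:**
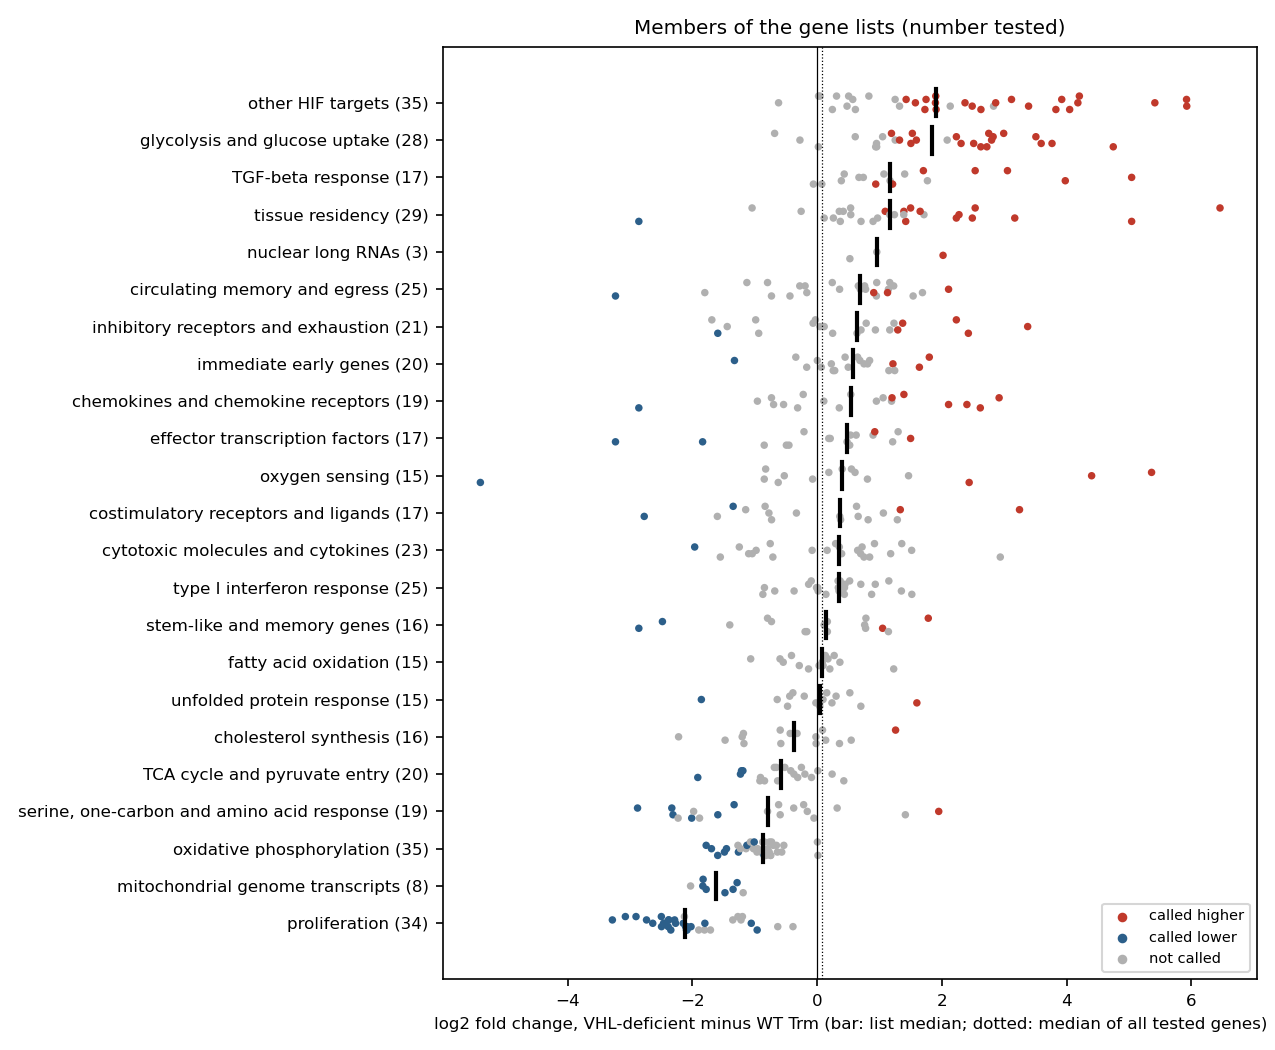
Log2 fold change in Trm cells (VHL-deficient minus WT) of each tested member of 23 gene lists, ordered by list median (black bar), with called members in red or blue and the median of all tested genes as a dotted line. The HIF target and glycolysis lists sit highest, at medians of 1.90 and 1.84, and proliferation lowest, at -2.12.

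In the list of glucose uptake and glycolysis 18 of 28 genes rose and none fell, with a median log2FC of 1.84. This list also holds genes of glycogen turnover and Ero1l, which is not a glycolysis gene. Slc2a1, the main glucose carrier, was at 1847 and 1778 in the VHL-deficient libraries and 220.3 and 340.4 in the WT libraries (log2FC 2.72, SE 0.28, adjusted p = 4.24e-06). Slc2a3, another carrier, was at 7316 and 12323 against 362 and 1341 (log2FC 3.77, adjusted p = 0.00245). Both carriers were separate between genotypes, with Slc2a3 the more spread among WT libraries. Hk2, which traps glucose by phosphorylation, was at 404 and 928 against 64.9 and 113 (log2FC 2.82, adjusted p = 0.00127). Pfkl, a phosphofructokinase, was at 4410.2 and 4602 against 551 and 966 (log2FC 2.62, adjusted p = 1.21e-04). Aldoc, an aldolase, was at 2448 and 2173 against 257 and 141 (log2FC 3.59, SE 0.47, adjusted p = 8.17e-05). In Pfkl and Aldoc the VHL-deficient libraries lay closer to each other, as a ratio, than the WT ones. Pgk1, which yields the first ATP of the pathway, was at 5275 and 3775 against 1758 and 1363 (log2FC 1.53, adjusted p = 6.96e-04). Slc16a3, the lactate exporter, was at 3903 and 4198 against 519 and 498 (log2FC 2.99, SE 0.30, adjusted p = 3.44e-06). Pdk1, the kinase that keeps pyruvate out of the citric acid cycle, was at 1328 and 1673 against 162 and 419 (log2FC 2.51, SE 0.50, adjusted p = 0.00343). Pfkfb3, Pfkp, Tpi1, Gpi1 and Pkm also rose, with log2FC from 1.19 to 2.23.

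Several enzymes did not pass. Ldha, which turns pyruvate into lactate, was at 38173 and 25686 against 23366 and 17974 (log2FC 0.61, adjusted p = 0.289). Aldoa, Eno1, Gapdh and Pgam1 had log2FC from 0.94 to 1.05, with adjusted p from 0.0514 to 0.106. These 5 genes were higher in both VHL-deficient than in both WT libraries without passing the test. Genes of glycogen turnover did pass. Pygl, which breaks glycogen down, was at 1922 and 1647 against 59.5 and 71.6 (log2FC 4.75, SE 0.49, adjusted p = 3.79e-06). Gys1, which builds it, was at 407 and 533 against 33.8 and 47.5 (log2FC 3.51, adjusted p = 1.94e-04), and Gbe1, which branches it, rose by log2FC 2.75. Pgm2, which interconverts sugar phosphates, was at 2449.5 and 1944 against 395 and 490.2 (log2FC 2.31, adjusted p = 2.56e-05). Once VHL-deficient replicate 2 was left out, 13 of the 28 members were called and without replicate 1 of the WT cells 14. The calls of Slc2a1, Gpi1, Pfkl, Aldoc, Tpi1, Pgk1, Pkm, Slc16a3, Gys1, Gbe1, Pygl, Pgm2 and Ero1l held with any 1 Trm library left out.

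In oxidative phosphorylation 9 of 35 nuclear genes fell and none rose, and 33 of the 35 log2FC were below 0, with a median of -0.87. Atp5b, a subunit of ATP synthase, was at 5058 and 3222 in the VHL-deficient libraries and 12146 and 10521 in the WT libraries (log2FC -1.49, SE 0.28, adjusted p = 0.00200). Cyc1, of complex III, was at 506 and 438 against 1486 and 1119 (log2FC -1.45, adjusted p = 0.00426). Ndufv1, of complex I, was at 472 and 355 against 1095 and 729.8 (log2FC -1.12, adjusted p = 0.00940). In each of the 3 genes replicate 2 was the lower library of its genotype, and the genotypes did not overlap. Cycs, Ndufa4, Cox5a, Sdhb, Uqcrc1 and Uqcrc2 also fell, with log2FC from -1.78 to -0.85. Without replicate 2 of the VHL-deficient cells none of the 35 genes was called, and without replicate 1 of the WT cells 1.

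Of 8 tested transcripts of the mitochondrial genome itself 6 fell, with a median log2FC of -1.63. The listed mt-Co2, mt-Co3, mt-Atp6 and mt-Atp8 were at 0 in every Trm library, for a reason that was not tested. mt-Nd5, of complex I, was at 3494 and 2096 in the VHL-deficient libraries and 10646 and 8669 in the WT libraries (log2FC -1.83, SE 0.31, adjusted p = 7.91e-04). mt-Cytb, of complex III, was at 2180.5 and 1180.2 against 6686 and 4882 (log2FC -1.83, adjusted p = 0.00136). mt-Co1, of complex IV, was at 32218 and 23644 against 109682 and 81675 (log2FC -1.78, adjusted p = 0.00728). All 8 had groups that did not overlap, against 53.5% of all genes tested and every called gene. All mitochondrial genes together, of which these transcripts are only a part, took 4.23% and 5.57% of reads in the VHL-deficient libraries. In the WT libraries they took 11.6% and 12.1%, and the part of RNA quality in this share was not tested. With VHL-deficient replicate 2 left out, 1 transcript was called and without replicate 1 of the WT cells 3, and the call of mt-Nd5 held with any 1 Trm library left out.

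In the citric acid cycle and pyruvate entry 4 of 20 genes fell and none rose. Idh2, an isocitrate dehydrogenase, was at 46.1 and 34.2 against 161 and 144 (log2FC -1.91, adjusted p = 0.0151). Mdh2, the malate dehydrogenase of mitochondria, was at 1322 and 926 against 3128 and 2102 (log2FC -1.21, adjusted p = 0.0143). Both were separate between genotypes, as were Fh1 and Idh3a, which fell with log2FC -1.23 and -1.19. No member was called without replicate 2 of the VHL-deficient cells or without replicate 1 of the WT cells. None of 15 fatty acid oxidation genes passed the test, with log2FC from -1.06 for Etfb to 1.23 for Cpt1a, the enzyme that admits fatty acids to mitochondria.

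Serine synthesis and the folate cycle supply carbon units for nucleotides. Of 19 genes of these pathways and of the amino acid response 6 fell and 1 rose, with a median log2FC of -0.79. Phgdh, the first enzyme of serine synthesis, was at 329 and 205 in the VHL-deficient libraries and 1208 and 910.3 in the WT libraries (log2FC -2.01, SE 0.34, adjusted p = 8.53e-04). Psat1, the next, was at 459.5 and 229 against 919 and 1045 (log2FC -1.59, adjusted p = 0.0106). Mthfd2, of the mitochondrial folate cycle, was at 385 and 127 against 1173 and 1037 (log2FC -2.31, SE 0.36, adjusted p = 4.13e-04). Replicate 2 was the lower VHL-deficient library for all 3. Shmt1, which passes carbon from serine to folate, was at 105 and 28.7 against 347 and 487 (log2FC -2.88, adjusted p = 0.00521). Shmt2, its mitochondrial form, was at 478 and 224 against 712 and 957 (log2FC -1.33, adjusted p = 0.00967). Asns, which makes asparagine, was at 113 and 22.5 against 245 and 275 (log2FC -2.33, adjusted p = 0.00451). Mthfd1l, another enzyme of the mitochondrial folate cycle, was the member that rose, at 1317 and 1687 against 209 and 707 (log2FC 1.95, adjusted p = 0.0312). Its call was lost without either VHL-deficient library, without replicate 1 of the WT cells and with no trend in the fit. It was also lost with only the 8 Trm and nonTrm libraries. Atf4, the factor that drives the amino acid response, had log2FC -0.22 and did not pass. Once VHL-deficient replicate 2 was left out, 2 members that fell were called, Phgdh and Mthfd2, whose calls held with any 1 Trm library left out. In cholesterol synthesis 1 of 16 genes passed, against 10.1% of all genes tested. This was Lss, at 175 and 236 against 74.3 and 95.7 (log2FC 1.26, adjusted p = 0.0306). Its call was lost without replicate 2 of the VHL-deficient cells, without replicate 1 of the WT cells and after TMM scaling. It was also lost with library weights, a filter of 1 in 2 libraries, only the 8 Trm and nonTrm libraries or only the 4 Trm libraries.

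Of 34 proliferation genes 24 fell and none rose, all 34 had a log2FC below 0, and the median was -2.12. Mki67, a marker of cycling cells, was at 473 and 372 in the VHL-deficient libraries and 1826 and 1742 in the WT libraries (log2FC -2.09, SE 0.28, adjusted p = 1.02e-04). Its VHL-deficient values lay near each other and well below the WT ones. Tyms, which makes thymidylate, was at 250.2 and 123 against 1031 and 717 (log2FC -2.28, SE 0.36, adjusted p = 3.70e-04). Stmn1, a microtubule regulator, was at 169 and 79.2 against 888 and 484 (log2FC -2.49, adjusted p = 9.39e-04). Top2a, which untangles DNA, was at 859 and 592 against 2611 and 3632 (log2FC -2.11, adjusted p = 0.00155). Replicate 2 was the lower VHL-deficient library in each of these genes. Cenpe, a motor of the kinetochore, was at 217 and 88.5 against 826 and 644 (log2FC -2.39, adjusted p = 0.00177).

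Among mitotic regulators the VHL-deficient libraries differed more from each other. Plk1, a mitotic kinase, was at 99.4 and 17.9 against 468 and 381 (log2FC -3.28, SE 0.66, adjusted p = 0.00360). Ube2c, which works with the anaphase-promoting complex, was at 261 and 36.5 against 1058 and 655 (log2FC -3.07, adjusted p = 0.00630). Birc5, a protein of the chromosomal passenger complex, was at 238 and 45.8 against 1086 and 573 (log2FC -2.90, adjusted p = 0.00314). In each gene, and in Cdc20 with log2FC -2.73, replicate 2 was the lower VHL-deficient library. Mcm2 and Mcm6 of the replicative helicase overlapped between genotypes and did not pass, with log2FC -1.22 and -0.39. Without replicate 2 of the VHL-deficient cells 3 of the 34 genes were called, without replicate 1 of the WT cells 8, and with only the 8 Trm and nonTrm libraries in the fit 2. The calls of Mki67, Stmn1 and Tyms held with any 1 Trm library left out. Myc, which drives growth and division and was on the immediate early list, was at 111 and 204 against 334 and 429.6 (log2FC -1.32, adjusted p = 0.0199). Its call was lost without replicate 1 of the VHL-deficient cells and without either WT replicate.

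Of 29 residency genes 12 rose and 1 fell, with a median log2FC of 1.17. The 12 include Itgae, the marker given for the fraction, and the part of the gate in its difference was not tested. Itga1, which encodes the collagen-binding integrin CD49a, was at 463 and 584 in the VHL-deficient libraries and 66.2 and 127 in the WT libraries (log2FC 2.49, SE 0.46, adjusted p = 0.00175). Cdh1, which encodes E-cadherin, the ligand of CD103, was at 265 and 602 against 0 and 19.7 (log2FC 6.46, SE 1.29, adjusted p = 0.00339). All 27 WT reads of Cdh1 came from replicate 2, so its fold depends on that library. Cd101, an inhibitory surface protein of resident cells, was at 245 and 496 against 59.5 and 90.6 (log2FC 2.23, SE 0.34, adjusted p = 3.17e-04). Rgs10, a G protein regulator, was at 561 and 689 against 158 and 103 (log2FC 2.28, adjusted p = 0.00103). Cxcr6, a chemokine receptor that keeps CD8+ T cells in tissue, was at 21968 and 18900.3 against 9923 and 6077 (log2FC 1.39, adjusted p = 0.00644). None of these genes overlapped between genotypes. The other members that rose were Qpct, Ldlrad4, Gpr34, Prdm1, Rgs1 and Inpp4b, with log2FC from 1.09 to 3.17.

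Xcl1, a chemokine that attracts cross-presenting dendritic cells, was the residency gene that fell, at 376 and 79.2 against 800.0 and 1981 (log2FC -2.86, SE 0.65, adjusted p = 0.00793). The genotypes did not overlap in Xcl1, but the libraries of each group spread widely. Cd69 was at 3941 and 11065 against 2523 and 3097 (log2FC 1.24, adjusted p = 0.169). Runx3, a regulator of residency, was at 687 and 777 against 469 and 327 (log2FC 0.90, adjusted p = 0.0520). Neither passed the test, nor did Zfp683, which encodes the residency factor Hobit (log2FC -0.26). With VHL-deficient replicate 2 left out, 6 residency genes were called. The calls of Itgae, Itga1, Rgs10 and Cd101 held with any 1 Trm library left out.

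In TGF-beta signalling 7 of 17 genes rose and none fell, with a median log2FC of 1.17. The 7 again include Itgae, the marker given for the fraction. Tgfb3, a ligand, was at 125 and 196 in the VHL-deficient libraries and 13.5 and 5.84 in the WT libraries (log2FC 3.98, SE 0.58, adjusted p = 1.94e-04). Tgfb1, the main ligand in lymphocytes, overlapped between genotypes at 77.5 and 95.5 against 79.7 and 101 (adjusted p = 0.938). Tgfbr3, a co-receptor, was at 60.7 and 99.4 against 12.2 and 5.84 (log2FC 3.05, adjusted p = 0.0234). Tgfbr2, a signalling receptor, was higher in both VHL-deficient libraries, at 899 and 1467 against 485 and 614, and did not pass (adjusted p = 0.0674). Members that dampen the signal also rose. Skil was at 569 and 1321 against 197 and 357 (log2FC 1.70, adjusted p = 0.0370). Ski, its relative, was at 202 and 276 against 83.8 and 123 (log2FC 1.21, adjusted p = 0.0232). Smurf2 and Ldlrad4 rose with log2FC 0.94 and 2.53, while Smad7 had log2FC 1.40 and did not pass. Once VHL-deficient replicate 2 was left out, only Tgfb3 and Itgae were called, and without replicate 1 of the WT cells 3 genes.

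Among 25 genes of circulating memory and tissue exit 3 rose and 1 fell, against 5.07% and 5.03% of all genes tested. The median log2FC of the 25 was 0.69. Cx3cr1, the fractalkine receptor, was at 213 and 159.9 against 51.3 and 34.3 (log2FC 2.11, adjusted p = 0.0193). Ripor2, which affects T cell polarity, was at 560.0 and 863 against 291 and 346 (log2FC 1.13, adjusted p = 0.0162). S1pr4, a receptor for sphingosine phosphate, was at 1335 and 1514 against 1008 and 568 (log2FC 0.91, adjusted p = 0.0391). All 3 were higher in both VHL-deficient libraries than in both WT libraries, and none was called without replicate 2 of the VHL-deficient cells. Eomes, a T-box factor of memory CD8+ T cells and NK cells, had 2 reads in the VHL-deficient libraries and 41 in the WT ones, a ratio of 21.8 (95% counting interval 5.66 to 186), and its call was lost with any 1 Trm library left out. S1pr1, the main egress receptor, and Klf2, its activator, did not pass, with log2FC 0.95 and 1.14.

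Of 19 chemokine and chemoattractant receptor genes 6 rose, all of them receptors, and the chemokine Xcl1 fell. Ccr2, the receptor for monocyte chemoattractants, was at 4518 and 8279.7 in the VHL-deficient libraries and 635 and 1563 in the WT libraries (log2FC 2.62, SE 0.55, adjusted p = 0.00521). Cxcr4, the receptor for Cxcl12 and a known HIF target, was at 140.3 and 229.8 against 12.2 and 42.4 (log2FC 2.92, adjusted p = 0.00227). Ccr4 and the oxysterol receptor Gpr183 rose with log2FC 2.40 and 1.20, beside Cxcr6 and Cx3cr1, and the genotypes did not overlap in these 6. The chemokines Ccl3, Ccl4 and Ccl5 had log2FC -0.54, 0.11 and 1.06 and did not pass. Without replicate 2 of the VHL-deficient cells Cxcr6 was the 1 receptor called, without replicate 1 of the WT cells 2 were called and without replicate 2 of the WT cells 2.

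Of 23 cytotoxic molecules and cytokines none rose and Gzmm fell, and the median log2FC was 0.36. Gzmb, the main granzyme of effector cells, was at 165728 and 75231 in the VHL-deficient libraries and 115119 and 41115 in the WT libraries (log2FC 0.70, adjusted p = 0.425). Replicate 1 was the higher library in each genotype, and the genotypes overlapped. Prf1, the pore-forming protein, was at 25153 and 14299 against 7575 and 7230.4 (log2FC 1.36, adjusted p = 0.0710), with both VHL-deficient values above both WT values. Ifng was at 1839 and 363 against 1479.7 and 2066 (log2FC -1.10, adjusted p = 0.158). The sign of Ifng rested on VHL-deficient replicate 2, without which its log2FC was 0.07. Gzmm was at 10.5 and 8.54 against 33.8 and 46.8 (log2FC -1.96, adjusted p = 0.0188), and its call was lost without replicate 2 of the VHL-deficient cells and without either WT replicate.

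Of 21 inhibitory receptor and exhaustion genes 5 rose and 1 fell, with a median log2FC of 0.64. Nt5e, which encodes the adenosine-making ectoenzyme CD73 and is a known HIF target, was at 379 and 726 in the VHL-deficient libraries and 23.0 and 106 in the WT libraries (log2FC 3.38, SE 0.57, adjusted p = 8.54e-04). Vsir, which encodes the checkpoint VISTA, was at 3646 and 4592 against 1916 and 1303 (log2FC 1.37, SE 0.25, adjusted p = 0.00144). Ctla4, the rival of CD28 for its ligands, was at 11653 and 12663 against 5158 and 4762 (log2FC 1.29, adjusted p = 0.0105). These 3 genes, with Cd200r1 (log2FC 2.42, adjusted p = 0.00530) and Cd101, were higher in both VHL-deficient libraries than in both WT libraries. Cd160 was the member that fell, at 653 and 350.2 against 1676 and 1244 (log2FC -1.59, adjusted p = 0.00779). Pdcd1, which encodes PD-1, overlapped between genotypes at 6085 and 4103 against 6344 and 2784 (log2FC 0.25, adjusted p = 0.731). Havcr2, which encodes TIM-3, was higher in both VHL-deficient libraries at 3824 and 2709.7 against 1151 and 1629 and missed the threshold (adjusted p = 0.0502). With VHL-deficient replicate 2 left out, Nt5e, Vsir and Cd101 were the members called.

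Among 17 costimulatory genes 2 rose and 2 fell. Tnfsf9, the ligand of 4-1BB, was at 308 and 339 against 55.4 and 19.7 (log2FC 3.24, adjusted p = 0.00504). Slamf7, a receptor that binds its own kind, was at 1604 and 1368 against 704 and 489 (log2FC 1.33, adjusted p = 0.00277). Crtam, an adhesion receptor of activated CD8+ T cells, was at 160.2 and 57.5 against 491 and 892 (log2FC -2.77, adjusted p = 0.0103). Each was separate between genotypes, as was Cd80, which fell with log2FC -1.35. Once VHL-deficient replicate 2 was left out, Slamf7 was the 1 member called.

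Of 17 effector transcription factors 2 rose and 2 fell, among the latter Eomes. Irf8, which acts in effector CD8+ T cells and in dendritic cells, was at 1202 and 637 in the VHL-deficient libraries and 3811 and 2561 in the WT libraries (log2FC -1.84, SE 0.34, adjusted p = 0.00188). Prdm1, which encodes the repressor Blimp-1, was at 349 and 455 against 177 and 111 (log2FC 1.50, adjusted p = 0.0219). Runx1 was at 179 and 247 against 108 and 113 (log2FC 0.92, adjusted p = 0.0410). None of the 17 was called without replicate 2 of the VHL-deficient cells, and after TMM scaling neither Prdm1 nor Runx1 was. Among 16 stem-like and memory genes 2 rose and 2 fell. Bcl2, which protects from cell death, was at 1645 and 1705 against 447 and 528 (log2FC 1.78, SE 0.22, adjusted p = 5.05e-05), and its call held with any 1 Trm library left out. Satb1, a chromatin organiser, was at 2249 and 3627 against 1296 and 1466 (log2FC 1.05, adjusted p = 0.0151). Myb was at 24.1 and 20.2 against 165 and 98.6 (log2FC -2.48, adjusted p = 0.0139), and Xcl1 was the other member that fell. The calls of Satb1, Myb and Xcl1 were lost without replicate 2 of the VHL-deficient cells, those of Satb1 and Myb without replicate 1 of the WT cells, that of Xcl1 without replicate 2 of the WT cells and that of Satb1 after TMM scaling. Tcf7, the defining factor of stem-like cells, was at 56.5 and 329 against 120.3 and 196 (log2FC -0.16, adjusted p = 0.893). Its VHL-deficient libraries lay on either side of the WT ones.

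Of 20 immediate early genes 3 rose and Myc fell. Btg2, which slows division, was at 5939.6 and 14687 against 2185 and 3296 (log2FC 1.80, adjusted p = 0.00482). Fosl2 was at 1061 and 2128 against 588 and 711 (log2FC 1.22, adjusted p = 0.0151). Egr1 was at 1214 and 3031 against 727 and 520.2 (log2FC 1.64, adjusted p = 0.0457). In these 3 genes replicate 2 was the higher VHL-deficient library, and none was called without it or without replicate 1 of the WT cells. In the unfolded protein response the chaperone gene Dnajb9 rose (log2FC 1.60, adjusted p = 0.0170) and Sdf2l1 fell (log2FC -1.86, adjusted p = 0.00362). These were the 2 calls among 15 genes, against 5.07% called higher and 5.03% lower over all genes tested. Both calls were lost without replicate 2 of the VHL-deficient cells and without replicate 1 of the WT cells. None of 25 type I interferon response genes passed, with log2FC from -0.87 for Usp18 to 1.52 for Ifit1. Of 3 tested long RNAs held in the nucleus, Neat1 rose, at 685 and 1676 against 173 and 401 (log2FC 2.02, adjusted p = 0.00694), and its call was lost without replicate 2 of the VHL-deficient cells and without replicate 1 of the WT cells. Malat1 was at 11945 and 11689.7 against 9643 and 6986 (adjusted p = 0.459), and the part of these RNAs or of RNA quality in the other results was not tested.

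Markers of other cells gave few calls. Of 16 T cell markers, which summed to 64616 to 81931 scaled counts in the VHL-deficient and 54956 to 77077 in the WT Trm libraries, Cd5 alone fell, at 209 and 311 against 447 and 578 (log2FC -0.99, adjusted p = 0.0282), and its call was lost with any 1 Trm library left out. Melanoma markers summed to 59.0 to 62.8 against 35.1 to 50.4. Macrophage and monocyte markers summed to 109 to 117 against 84.7 to 139. Neutrophil markers summed to 2.09 to 23.3 against 13.2 to 20.3, with S100a9, Elane, Camp, Retnlg and Cxcr2 at 0 in all 4 libraries. None of the tested members of these 3 lists (3 of 8, 5 of 14 and 1 of 12) passed. NK cell markers summed to 224 to 286 against 307 to 361, with Eomes as the 1 called member of 8 tested. CD4 T cell markers summed to 901 to 1050.5 against 769 to 858, fibroblast and endothelial markers to 223 to 334 against 224 to 297 and erythroid markers to 14.7 to 20.2 against 10.8 to 13.9. No tested member of these 3 lists passed. The melanoma, CD4 T cell and erythroid sums were higher in both VHL-deficient libraries and the NK cell sum lower, and their part in the results above was not tested. Single genes made up the largest part of several sums: Pmel (melanoma), Il2ra (CD4 T cell), Pecam1 (fibroblast and endothelial) and Alas2 (erythroid). Il2ra was at 686 and 824 against 616 and 719. Of 6 tested CD4 T cell markers 4 had a log2FC above 0 and 2 below, among these Foxp3 with 2 reads against 38. Of 8 tested NK cell markers 4 were above 0 and 4 below, and of 3 tested melanoma markers 1 above and 2 below. Among the NK cell markers Klre1 was at 141 and 62.9 against 250 and 196. Itga2 went the other way, at 103 and 146 against 54.1 and 57.7.

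Members of the class II and B cell lists also changed. H2-Ab1, a class II beta chain, was at 2256 and 1676 in the VHL-deficient libraries and 227 and 86.9 in the WT libraries (log2FC 3.78, SE 0.57, adjusted p = 2.64e-04). Xcr1, the receptor for Xcl1, was at 360.1 and 505 against 87.8 and 65.0 (log2FC 2.48, SE 0.34, adjusted p = 1.16e-04). Both calls held with any 1 Trm library left out. H2-Eb1, another class II beta chain, fell, at 3.14 and 4.66 against 77.0 and 26.3 (log2FC -3.25, adjusted p = 0.0391). H2-Aa, the alpha chain that pairs with H2-Ab1, was at 9.42 and 5.43 against 112 and 38.0 (log2FC -3.02, adjusted p = 0.0761). Cd74, the invariant chain, was at 18.8 and 23.3 against 58.1 and 50.4 (log2FC -1.33, adjusted p = 0.279). The class II genes thus did not move together: H2-Ab1 was higher in both VHL-deficient libraries, and H2-Eb1, H2-Aa and Cd74 were lower in both. The dendritic cell genes Clec9a and Siglech were at 0 in all 4 libraries, and the 11 markers summed to 6202 to 7984 against 7757 to 7809, most of it Ccr7. Ighm, the heavy chain of IgM, fell, at 105 and 118 against 329.7 and 468 (log2FC -1.81, adjusted p = 0.0153). Igkc and Blk were at 0 in all 4 libraries, and the B cell markers summed to 193 to 201 against 405 to 499.7. Ighm made up the largest part of each sum. Cd79b, the only other B cell marker tested, went the other way without passing, at 87.9 and 77.6 against 56.8 and 28.5 (log2FC 1.02). Of the 4 fits that each left out 1 Trm library, the call of H2-Eb1 was lost in 3 and that of Ighm in all 4.

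The same contrast was read in the nonTrm cells and in unsplit day 7 tumor cells, whose libraries are separate from the Trm ones although the estimate of the spread is shared. In nonTrm cells 332 genes were called (2.32%), 236 higher (1.65%) and 96 lower (0.67%). In unsplit cells 273 were called (1.91%), 241 higher (1.68%) and 32 lower (0.223%). Of the 726 genes that rose in Trm cells, 176 also rose in nonTrm cells, which is 24.2% of the Trm list and 74.6% of the nonTrm list. In unsplit cells 202 also rose, 27.8% of the Trm list and 83.8% of the unsplit list, and 133 rose in all 3. Of the 720 genes that fell in Trm cells, 50 also fell in nonTrm cells (6.94% and 52.1%) and 23 in unsplit cells (3.19% and 71.9%). No gene was called in opposite directions. Without the nonTrm library that stood apart, 183 genes rose and 42 fell in nonTrm cells, of which 160 and 26 did so in Trm cells.

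The sign was shared by more genes than the calls. Of the 726 genes that rose in Trm cells, 666 (91.7%) had a log2FC above 0 in nonTrm cells and 700 (96.4%) in unsplit cells. Of the 720 that fell, 648 (90.0%) had a log2FC below 0 in nonTrm cells and 699 (97.1%) in unsplit cells. Without the nonTrm library that stood apart the nonTrm shares were 95.7% and 93.2%. The median log2FC of the genes that rose was 1.78 in Trm, 0.94 in nonTrm and 1.06 in unsplit cells, and that of the genes that fell -1.53, -0.58 and -0.69. The genes were chosen by their Trm values, which makes the Trm medians the larger by construction. Proliferation had 24 of 34 genes called lower in Trm, 1 in nonTrm and none in unsplit cells, with medians of -2.12, -1.27 and -0.82. Oxidative phosphorylation had 9 of 35 genes called lower in Trm and none in nonTrm or unsplit cells, with medians of -0.87, -0.23 and -0.58. Glycolysis had 18, 17 and 18 of 28 genes called higher in Trm, nonTrm and unsplit cells, the other HIF targets 21, 19 and 15 of 35, and residency 12, 3 and 5 of 29.

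**Figure D5:**
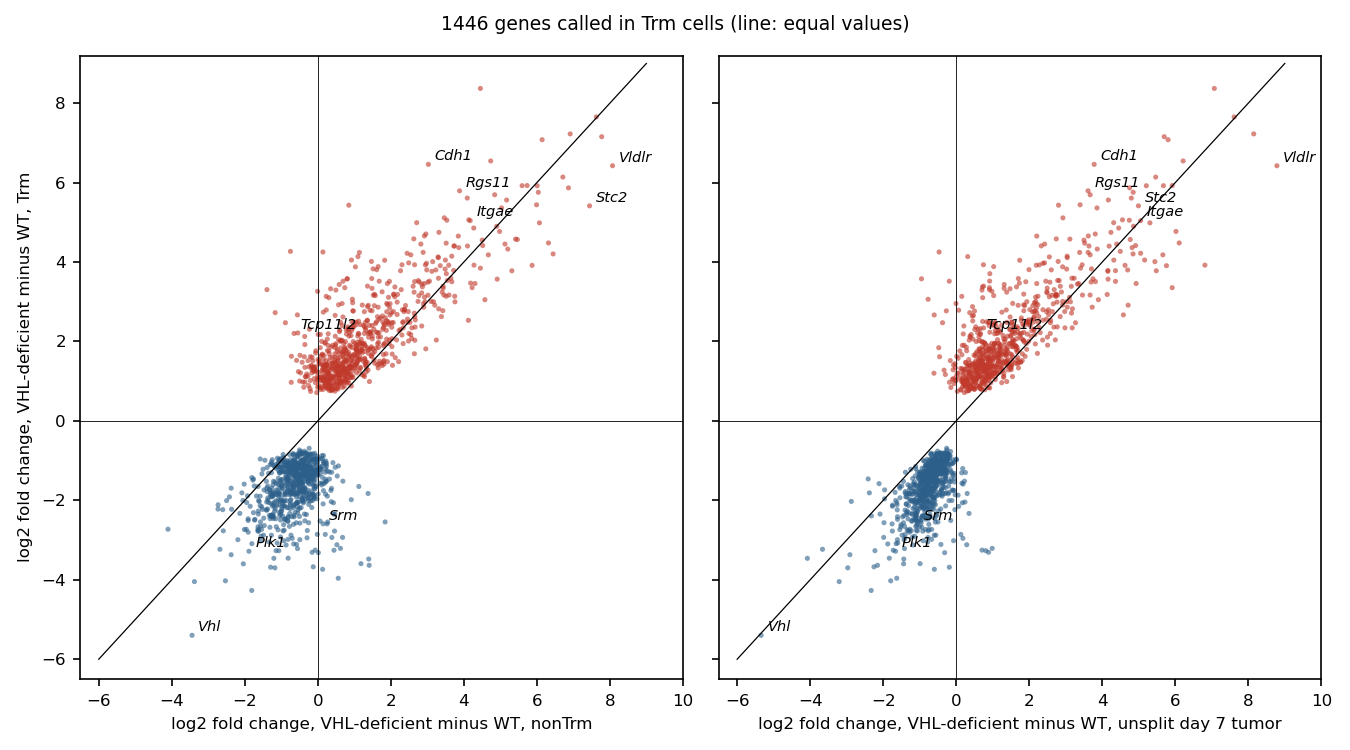
Log2 fold change (VHL-deficient minus WT) of the 1446 genes called in Trm cells, in Trm cells against nonTrm cells (left) and against unsplit day 7 tumor cells (right), with genes that rose in red, genes that fell in blue and a line of equal values. Most points lie in the quadrants of shared sign, above the line for genes that rose and below it for genes that fell.

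No gene passed the test of the difference between Trm and nonTrm cells itself. The change in Trm minus that in nonTrm cells was called for 0 of 14327 genes (0%) by limma on log2 values and for 0 by voom on recovered reads, with 1156 genes (8.07%) at an unadjusted p under 0.05, of which 445 were called in Trm cells. The differences between fractions in the preceding counts were thus not shown for any single gene. The smallest adjusted p was 0.263, shared by Tcp11l2, Srm and Coq2. Tcp11l2 was at 422 and 704 against 83.8 and 165 in Trm and 565 and 248 against 493 and 702 in nonTrm cells. Srm, which makes the polyamine spermidine, was at 69.1 and 30.3 against 295 and 268 in Trm and 95.7 and 128 against 115 and 87.0 in nonTrm cells. Coq2, of ubiquinone synthesis, was at 23.0 and 17.9 against 105 and 52.6 in Trm and 52.0 and 73.7 against 22.6 and 23.8 in nonTrm cells. In all 3 genes the genotypes were separate in Trm cells, and in nonTrm cells only those of Coq2 were. The test moved with the nonTrm libraries: 1494 genes were called without replicate 1 of the VHL-deficient nonTrm cells, which leaves the library that stood apart as the lone one of its group, 0 without that library, and 3 without replicate 1 of the WT nonTrm cells. A lone library is assumed to vary like the other groups.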

How the data were processed

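RNA sequencing libraries of mouse CD8+ T cells were compared by genotype within the Trm fraction, 2 libraries against 2, in a fit over all 22 libraries of 10 groups. Per the submitters' processing notes, STAR, featureCounts, DESeq and the mm10 genome build were used, with roles, versions and annotation not given in the sources used here. The authors deposited 1 signal value per gene and library. These values equal reads divided by a size factor, plus 1: after the 1 was taken off, 100% were whole reads within 0.01 of a read. Reads are not known to be separate molecules, so intervals and floors cover counting error only. Levels in the text are the deposited values minus 1.

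Genes at 10 or more in at least 2 libraries (14327 of 46297 rows) were fitted on log2(level + 1) with limma 3.58.1 in R 4.3.3 (group means, trended prior, 12 residual degrees of freedom) and Benjamini-Hochberg adjustment over all genes tested for each contrast, with an adjusted p under 0.05 as the call. A fold change on this scale understates the change of low genes. The code was tested on simulated data. Tables were made with Python 3.11.15, pandas 2.3.3 and numpy 2.4.6. Groups came from the sample labels. Alternatives were TMM scaling, recomputed size factors, other pseudocounts and filters, no trend, library weights, fewer groups, a replicate block, voom on the recovered reads and each library left out in turn.

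The 4 libraries, the gene lists (34) and the tests were chosen with earlier results of these data known, so the list counts are descriptions. Named genes are Vhl, Itgae, 11 chosen genes, the 15 largest changes each way among called genes above the median level without overlap, up to 6 called members of each list by adjusted p (or 2 by level where none was called), and the 3 smallest p for the difference between fractions. Further list members were named after their values were seen. Gene positions (mm10) are from GENCODE M21 by symbol, found for 13925 tested genes (97.2%); promoters are from RefSeq. Reads of near-identical copies and of overlapping genes cannot be told apart. Some items are not reported here.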

Additional observations from a re-analysis of the deposited data

How the results depend on the processing

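The number of genes called in Trm cells ranged from 234 to 2367 with 1 library left out (165 to 1133 higher, 69 to 1234 lower), the lowest without VHL-deficient Trm replicate 2 and the highest without VHL-deficient nonTrm replicate 1. It was 176 (146 higher, 30 lower) with only the 8 Trm and nonTrm libraries in the fit and 667 (357 and 310) with only the 4 Trm libraries. With a filter of 1 in 2 libraries 479 genes were lower. TMM scaling gave 1207 and voom 1957. In nonTrm cells the count was 55 with library weights, 77 with the 8 libraries, 0 with only the groups compared, and 131 to 1998 with 1 library left out. In unsplit cells it was 410 with library weights, 116 with only the groups compared, and 94 to 424 with 1 library left out. The difference between fractions gave 0 to 1494. Between WT fractions the count was 1 with no trend, 0 with the 8 libraries or only the groups compared, 74 with a pseudocount of 5, 161 by voom and 0 to 219 with 1 library left out. Between VHL-deficient fractions it was 2 with the filter of 1 in 2 libraries, 0 with library weights, the 8 libraries, only the groups compared or voom, and 0 to 2543 with 1 library left out. Fewer libraries leave fewer degrees of freedom; otherwise the cause was not tested.

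With the replicate number as a block 1209 genes were called in Trm cells (620 higher, 589 lower) and 16 between WT fractions; same-numbered Trm libraries deviated with r = 0.236, and the labels do not say what the number marks. The planned edgeR test was not run; voom was the test run on the recovered reads. Of 117 named genes called in Trm cells, none changed sign under any alternative, and 73 were not called with the 8 libraries, 32 with only the 4 Trm libraries, 13 after TMM scaling and 0 by voom. Without VHL-deficient Trm replicate 2 70 were not called, without replicate 1 8, without WT Trm replicate 1 51 and without replicate 2 25. Among the 24 not called, signs turned after TMM scaling for Pecam1 (-0.063) and Eif2s3y (-0.051). With 1 library left out the log2FC ranged over 0 for Gzmb (-0.044 to 1.44), Ifng (-2.27 to 0.073), Pdcd1 (-0.34 to 0.84), Tcf7 (-1.43 to 1.10), Acadl (-0.91 to 0.086), Hadha (-0.18 to 0.53), Ifi27l2a (-2.06 to 0.71), Cd68 (-0.83 to 0.11), Mmp9 (-2.59 to 1.39) and Pecam1 (-0.19 to 0.40). A part of depth in these calls was not tested; a count of 0 allows up to 3 reads.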
